A study of Mus musculus with 8 samples.

Results

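Of the 49315 gene identifiers counted in brain endothelial cells (ECs) of P9 mouse pups, 10 were selected on very low read counts in wild-type libraries together with high read counts in mutant libraries. They are *Krt23*, *Gkn1*, *Klrb1c*, *Raet1e*, *Fam110c*, *Ttc9*, *Prss12*, *Ptprn*, *Gm6634* and *D330037F02Rik*. The counts of the 4 mutant and 4 wild-type libraries chose them, so their levels and fold changes are given as a description without a test. All 10 passed the filter on low counts; their mutant counts alone were enough for that. Of the 10 genes, 8 are annotated as protein coding, *Gm6634* as a long intergenic non-coding RNA and *D330037F02Rik* as a processed transcript.

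The mutant pups were R26 GT-Map2k1-GFP/+; Tg-Cdh5CreER+/-, an allele at the *Rosa* locus that expresses MAP2K1 (p.K57N) and GFP after Cre has removed a stop, together with a tamoxifen-dependent Cre driven by the endothelial *Cdh5* promoter. Tamoxifen was given to all pups, controls included, on postnatal day 1, and ECs were taken on day 9 with beads against CD31 from pups of the same litters, on a C57BL/6J background. The controls are labelled wild type, and the sources used here do not settle which of the alleles, if any, a given control carried. Each library came from 1 pup, so the spread between libraries includes that between animals. The model has 3 limits: a minority of the mutant pups' ECs had recombined the allele, the mutant protein was made from a strong promoter at a foreign locus, and no group made the normal protein from that locus.

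MAP2K1, also called MEK1, is the kinase that phosphorylates and activates ERK, and the p.K57N change keeps it active. ERK signalling ends on transcription factors of the ETS and AP-1 families, among others. Whether the 10 genes share a function in brain endothelium was not examined. *Krt23* encodes an epithelial keratin and *Gkn1* a secreted protein of the gastric surface. *Klrb1c* encodes the natural killer cell antigen NK1.1, and *Raet1e* a ligand of the activating natural killer cell receptor NKG2D. *Prss12* encodes neurotrypsin, a serine protease that cleaves agrin, and *Ptprn* a membrane protein of dense core secretory vesicles in neurons and endocrine cells. *Fam110c* encodes a protein of the centrosome and the spindle poles, and *Ttc9* a protein with tetratricopeptide repeats, which bind other proteins. No role is given here for the 2 non-coding genes.

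RefSeq promoter windows, from 250 bases before to 50 bases after a transcript start on GRCm38.p6, matched 9 of the 10 genes, with 11 windows among them. The windows were searched on both strands for the AP-1 letters TGANTCA, the ETS letters GGAAGT and the cAMP response element TGACGTCA, for the CArG box of serum response factor, and on the forward strand for the TATA box TATAAA. AP-1 letters lay in 3 of the 11 windows and in 7.81% of 32817 windows genome-wide. ETS letters lay in 2 of the 11 and in 23.8% genome-wide. The other 3 motifs were in none of the 11, against 1.79% of all windows for the cAMP response element, 1.63% for the CArG box and 8.32% for TATAAA. No matches overlapped. The 4 windows with a match are shown because they carry the letters of factors at the end of the ERK pathway, with the matched letters in capitals and read 5′ to 3′ on the strand of the gene. In them TGANTCA starts 99 bases before the start of *Gm6634*, 174 before *Gkn1* and 100 before *Fam110c*, and the ETS letters appear as GGAAGT in *Klrb1c* and, from the opposite strand, as ACTTCC at 2 places in *Gm6634*.
Gm6634 (chr3:70807242-70807541, minus strand): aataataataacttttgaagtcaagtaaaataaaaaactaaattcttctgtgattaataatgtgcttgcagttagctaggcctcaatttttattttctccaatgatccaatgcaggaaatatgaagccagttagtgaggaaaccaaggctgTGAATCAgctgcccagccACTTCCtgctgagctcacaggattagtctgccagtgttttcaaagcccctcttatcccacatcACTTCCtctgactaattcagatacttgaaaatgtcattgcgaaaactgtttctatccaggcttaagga
Gkn1 (chr6:87350866-87351165, minus strand): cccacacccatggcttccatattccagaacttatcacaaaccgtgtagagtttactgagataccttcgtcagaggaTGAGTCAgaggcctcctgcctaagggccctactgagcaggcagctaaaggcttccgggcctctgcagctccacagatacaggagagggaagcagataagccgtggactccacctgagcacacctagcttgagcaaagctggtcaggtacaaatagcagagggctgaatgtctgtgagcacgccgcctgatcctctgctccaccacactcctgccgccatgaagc
Fam110c (chr12:31073718-31074017, plus strand): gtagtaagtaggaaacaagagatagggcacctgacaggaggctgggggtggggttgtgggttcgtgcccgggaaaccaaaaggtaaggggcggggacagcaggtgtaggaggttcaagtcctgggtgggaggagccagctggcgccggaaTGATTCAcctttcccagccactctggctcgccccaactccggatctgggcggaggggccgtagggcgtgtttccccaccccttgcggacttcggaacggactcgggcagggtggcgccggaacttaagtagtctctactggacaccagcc
Klrb1c (chr6:128788592-128788891, minus strand): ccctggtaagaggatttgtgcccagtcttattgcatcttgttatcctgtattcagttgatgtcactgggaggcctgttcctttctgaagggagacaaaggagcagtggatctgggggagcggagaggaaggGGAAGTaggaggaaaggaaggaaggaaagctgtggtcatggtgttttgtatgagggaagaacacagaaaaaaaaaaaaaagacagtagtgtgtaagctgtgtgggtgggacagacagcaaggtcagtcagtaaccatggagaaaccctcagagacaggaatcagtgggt
A match of letters describes the sequence and says nothing of binding. The 4 windows have unlike composition, since the GC content was 38.3% in *Gm6634* and 62.3% in *Fam110c*, with 1 CpG against 16. Over the 11 windows GC ran from 38.3% to 68.7%, the highest in *Ttc9*, beside a genome-wide median of 52.7%.

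Libraries held 24833373 to 34196955 counted reads in mutants and 28146348 to 32208421 in wild type. Levels are given as normalized counts, which are read counts divided by the scaled size of the library and multiplied by the mean of those sizes. *Map2k1* measured 18734, 12692, 12707 and 14342 normalized counts in mutants 1 to 4 and 1506 to 1762 in wild type, so each library matched its label. Its log2 fold change was 3.18 (SE 0.13, n = 4 per group). The 13 endothelial genes examined summed to 439825 to 528121 in mutants and 439612 to 526371 in wild type. Genes of neurons, oligodendrocytes and red blood cells were lower in mutant libraries, as detailed beside *Ptprn*. In bulk RNA, fewer cells of a type and less RNA per cell cannot be told apart.

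In mutant libraries the 10 genes ranged from 100 ± 74.3 normalized counts (SD, n = 4) for *Klrb1c* to 3880 ± 835 for *Fam110c*. In wild-type libraries they ranged from 0.216 ± 0.432 for *Klrb1c* to 58.2 ± 24.5 for *Ptprn*. For all 10, every mutant library lay above every wild-type library, a pattern found in 20.6% of the 16887 genes tested. In RPKM, which scales reads to exonic length and library size, the mutant means ran from 1.14 for *Klrb1c* to 49.0 for *Fam110c*, beside a median of 3.29 over all genes tested. The level of *Fam110c* in mutants exceeded that of 94.1% of the genes tested, while its wild-type level exceeded that of 11.6%. The median log2 fold change of the 10 was 6.98, against -0.02 over all genes tested, and it follows from the choice of the genes.

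**Figure D1:**
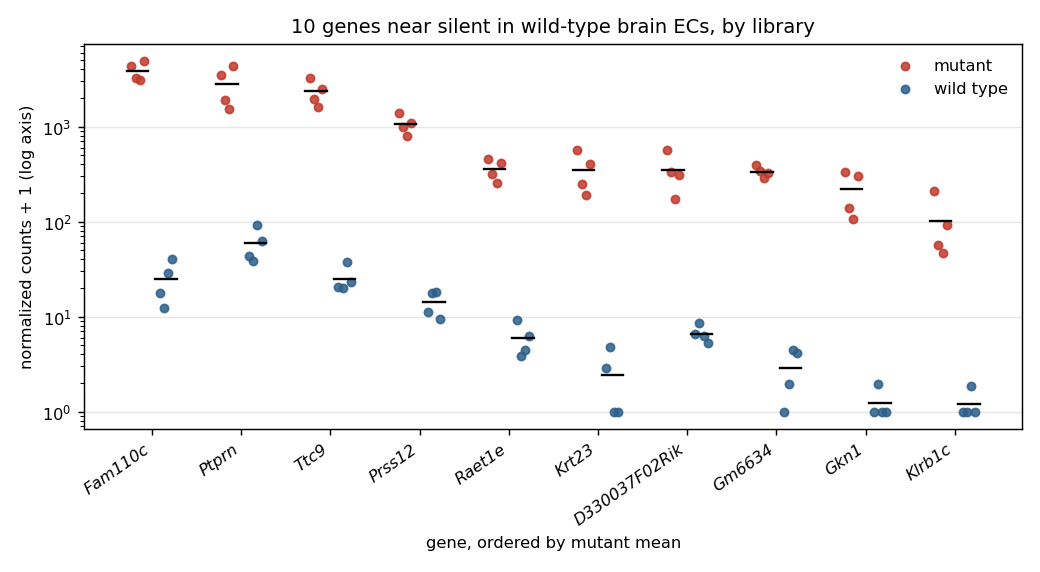
Normalized counts plus 1 (log axis) of the 10 genes in 4 mutant (red) and 4 wild-type (blue) libraries, with genes ordered by their mutant mean. Each point is a library and the bar is the group mean. The groups do not overlap for any gene, and the lowest mutant value of *Ptprn* is 16.7 times its highest wild-type value, the narrowest gap of the 10.

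*Krt23* (chr11:99477974-99493137, minus strand) belongs to the type I keratins, the acidic partners in the intermediate filaments of epithelia. It held 450, 222, 171 and 459 reads in mutants 1 to 4 and 2, 4, 0 and 0 reads in wild types 1 to 4. Mutants 1 and 4 were the high ones, and no wild-type library came near the lowest mutant. After scaling this was 351 ± 171 against 1.40 ± 1.80 normalized counts, with a log2 fold change of 7.84 (SE 0.62). Without wild type 2, which held 4 of the 6 wild-type reads, the log2 fold change was 8.86. Of 53 other keratin genes in the count table, 43 had at most 5 reads in every library, 4 were tested, 0 were called higher and 1 was lower, where a gene was called when its adjusted p lay below 0.05 and it differed by more than 1 on the log2 scale (background among all genes tested: 5.9% higher and 8.05% lower). The lower one was *Krt222*, a keratin-like gene outside the epithelial set, at 83.0 ± 27.0 in mutants and 302 ± 42.4 in wild type (log2 fold change -1.86, Benjamini-Hochberg adjusted p = 0.000127 in the edgeR quasi-likelihood test). Among keratins too low to test, *Krt20*, which lies 39.8 kb from *Krt23*, held 20, 14, 1 and 41 reads in mutants 1 to 4 and 1, 3, 1 and 0 in wild types 1 to 4. It was highest in mutants 1 and 4, as *Krt23* was, but mutant 3 overlapped with wild type. *Krt39* (1 to 5 reads) and *Krt87* (3 to 4 reads) held reads in every mutant and 0 in every wild-type library. Other low keratins leaned the opposite way. *Krt1* held 0, 0, 1 and 0 reads in mutants 1 to 4 and 3, 4, 1 and 1 in wild types 1 to 4. *Krt24* held 0 in every mutant and 1, 2, 2 and 0 in wild types 1 to 4. These untested keratins were named after their values were seen. The highest count of a marker of simple epithelium in any library ran from 3 reads for *Krt7* to 90 for *Cldn4*, with 60 for *Krt8* and 62 for *Krt18*. Of the 12 epithelial markers 7 were tested, among which *Cldn4*, a tight junction claudin, was higher (43.9 ± 24.7 against 13.8 ± 3.80) and *Cdh1*, the epithelial cadherin, was lower (11.6 ± 5.69 against 45.1 ± 19.1). Their sum ran from 118 to 227 in mutants and 123 to 271 in wild type (two-sided exact permutation, p = 0.286).

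*Gkn1* (chr6:87345650-87350942, minus strand) encodes gastrokine 1, which surface mucous cells of the stomach secrete. Mutants 1 to 4 held 263, 124, 95 and 350 reads, and the 4 wild-type libraries held a single read, in wild type 2. In total 832 mutant reads stood against 1, a depth-scaled ratio of 945 with an exact 95% counting interval of 169 to 37374 that covers counting error only. The upper bound is wide because 1 read sets it. *Gkn2*, the neighbouring gastrokine, held 1 read in all 8 libraries together. *Gkn3*, the other gastrokine and a gene that brain ECs transcribe, went the opposite way, at 151, 215, 219 and 185 normalized counts in mutants 1 to 4 and 1974, 1533, 823 and 1558 in wild types 1 to 4. Its groups do not overlap, and its log2 fold change was -2.93 (SE 0.25, Benjamini-Hochberg adjusted p = 1.5e-05 in the edgeR quasi-likelihood test). Of 11 gastric mucosa markers in the table, 2 were tested and 0 called: *Muc6*, a mucin gene, at 77.3 ± 11.6 against 78.9 ± 9.55, and *Ctse*, a protease gene, at 25.3 ± 10.3 against 41.6 ± 8.01. The others ran from *Cldn18*, at 0 in every library, to *Muc5ac*, the mucin gene of surface cells, at 0, 3, 5 and 27 reads in mutants 1 to 4 and 0, 1, 2 and 6 in wild types 1 to 4. The markers summed to 78.5 to 143 in mutants and 114 to 154 in wild type (two-sided exact permutation, p = 0.629).

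*Klrb1c* (chr6:128778485-128789215, minus strand) encodes NK1.1, the C-type lectin-like receptor by which natural killer cells are recognized in C57BL/6 mice. It held 164, 51, 41 and 105 reads in mutants 1 to 4 and 1 read in the wild-type libraries, in wild type 3. Mutant 1 held the most reads and mutant 3 the fewest, and the coefficient of variation among the mutants, 74.1%, was the highest of the 10. The depth-scaled ratio of 361 to 1 reads was 410 (exact 95% counting interval 73.1 to 16242). The 16 other natural killer cell genes listed covered a wide range. In mutant 1, where *Klrb1c* was highest, 8 of them were at 0 reads, namely *Ncr1*, *Klrk1*, *Klrd1*, *Klra8*, *Klrg1*, *Nkg7*, *Gzma* and *Gzmb*, and the other 8 held 1 to 1898 reads, led by *Itga2*, *Txk* (34) and *Tbx21* (12). Over all libraries *Ncr1* held at most 2 reads, *Gzma* and *Klrk1* at most 1 each. Others reached more: *Klre1* held 29 reads in mutant 4 and 24 in wild type 4, and *Klrd1* held 15 in mutant 4.

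Of 25 other killer cell lectin-like receptor genes in the table, 21 had at most 5 reads in every library. The single one tested, *Klrg2*, was not called (277 ± 80.2 against 246 ± 46.5). Of the 16 natural killer cell genes listed, 5 were tested. *Itga2*, an integrin subunit that binds collagen and is also made outside lymphocytes, was higher at 2100 ± 204 against 390 ± 38.1, *Txk*, a lymphocyte kinase, was higher at 44.0 ± 16.8 against 20.9 ± 7.82, and *Eomes*, a T-box factor, was lower at 14.9 ± 9.05 against 37.0 ± 14.4. The calls of *Txk* and *Eomes* were lost when certain single libraries were left out. The list summed to 2110 to 2486 in mutants and 441 to 569 in wild type (p = 0.0286 by exact permutation, two-sided, which 4 against 4 libraries cannot go below). Without *Itga2*, which was left out after its values were seen, the other 15 genes summed to 74.1 to 172 and 74.3 to 158 (two-sided exact permutation, p = 0.629). The part of natural killer cells in the level of *Klrb1c* was not tested. Transcripts of *Klrb1c* are 92.3% identical to those of *Klrb1a* over 780 bases and 91.9% to those of *Klrb1b* over 627 bases. Those genes reached at most 1 and 5 reads, and how shared reads were divided among the copies was not stated.

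**Figure D2:**
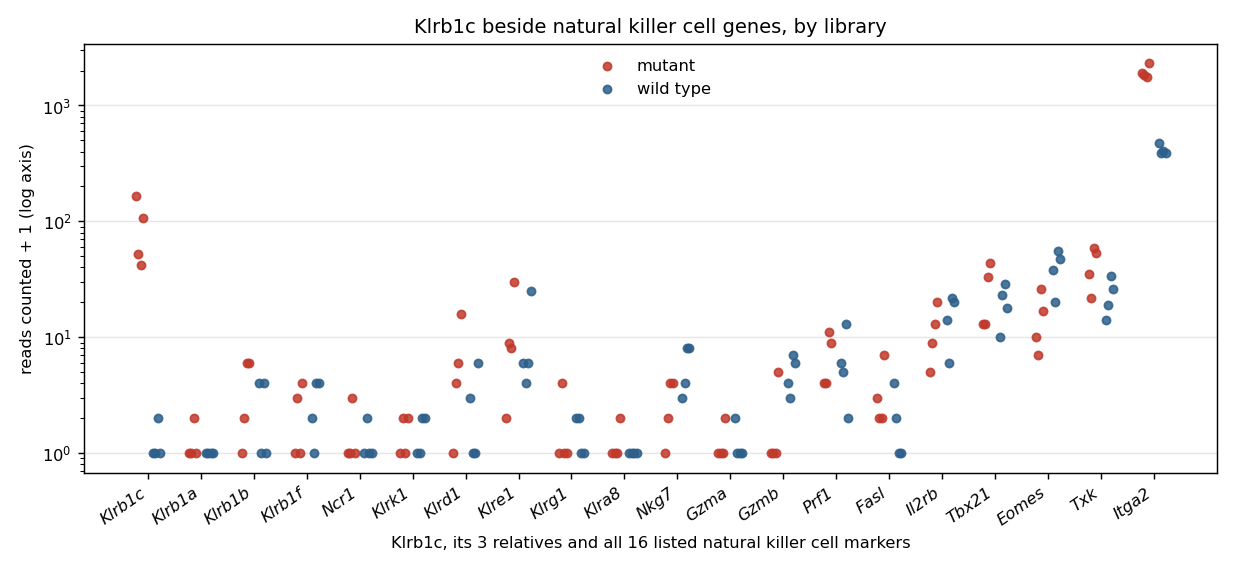
Reads counted plus 1 (log axis) for *Klrb1c*, 3 of its relatives and all 16 listed natural killer cell genes in each mutant (red) and wild-type (blue) library. *Klrb1c* holds 41 to 164 reads in mutants and at most 1 in wild type, *Itga2* holds 1767 to 2303 against 390 to 470, and no other gene shown passes 58 reads in any library.

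*Raet1e* (chr10:22158569-22374139, plus strand) encodes a member of the RAE-1 proteins, surface ligands that cells display under stress or transformation and that NKG2D on natural killer and T cells binds. Its reads numbered 358, 284, 232 and 474 in mutants 1 to 4 and 9, 3, 4 and 5 in wild types 1 to 4. The mutants differed among themselves by at most 1.76 times after scaling. The means were 359 ± 89.8 against 4.96 ± 2.45 normalized counts, and the log2 fold change was 6.15 (SE 0.31). The other NKG2D ligand genes, which the selection did not use, were also higher where tested. The count table held 4 of them, of which 3 were tested and 3 called higher, where 5.9% of all genes tested were, with a median log2 fold change of 2.45. *H60c*, too low to test, held 1, 0, 7 and 17 reads in mutants 1 to 4 and 0, 1, 0 and 0 in wild types 1 to 4, so its groups overlapped.

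*H60b* measured 105, 94.0, 99.7 and 148 normalized counts in mutants 1 to 4 and 6.33 to 12.2 in wild type, a log2 fold change of 3.59 (SE 0.28). *Raet1d* measured 99.2 to 128 in mutants and 12.7 to 30.4 in wild type, a log2 fold change of 2.45 (SE 0.26). *Ulbp1*, which lies apart from that cluster, measured 348 to 424 in mutants and 151 to 181 in wild type, a log2 fold change of 1.24 (SE 0.12). None of the 3 overlapped between groups. Each was called by edgeR, whose quasi-likelihood test gave Benjamini-Hochberg adjusted p-values of 1e-05 for *H60b*, 6.2e-05 for *Raet1d* and 3.2e-05 for *Ulbp1*. *Raet1e* and *Raet1d* cannot be read as wholly separate, because their transcripts are 96.0% identical over 1437 bases and share 363 exonic bases, 16.8% of the exonic length of *Raet1e*. *H60b* shares 133 such bases with *Raet1e*, and their transcripts are 94.7% identical over 150 bases. The annotated body of *Raet1e* also spans 7 genes that share no exonic base with it, all untested and at a mutant mean of at most 16.8 normalized counts.

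The genes of the receptor complex differed in level. *Klrk1*, which encodes NKG2D, held at most 1 read in any library. *Tyrobp*, an adaptor of NKG2D and of many myeloid receptors, was not called (241 ± 181 against 165 ± 120). *Hcst*, which encodes the adaptor DAP10, measured 35.5, 21.0, 23.3 and 27.9 normalized counts in mutants 1 to 4 and 0.921, 0.940, 2.59 and 0 in wild types 1 to 4. It was called higher, with a log2 fold change of 4.38 (SE 0.51), and its wild-type mean of 1.11 normalized counts lay within the range of the 10 genes. *Lck*, a T cell kinase, was the 1 gene of 2 tested among T cell markers that was called, at 96.7 ± 33.9 against 34.5 ± 12.4, while the T cell list summed to 81.8 to 174 and 72.8 to 115 (two-sided exact permutation, p = 0.229).

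**Figure D3:**
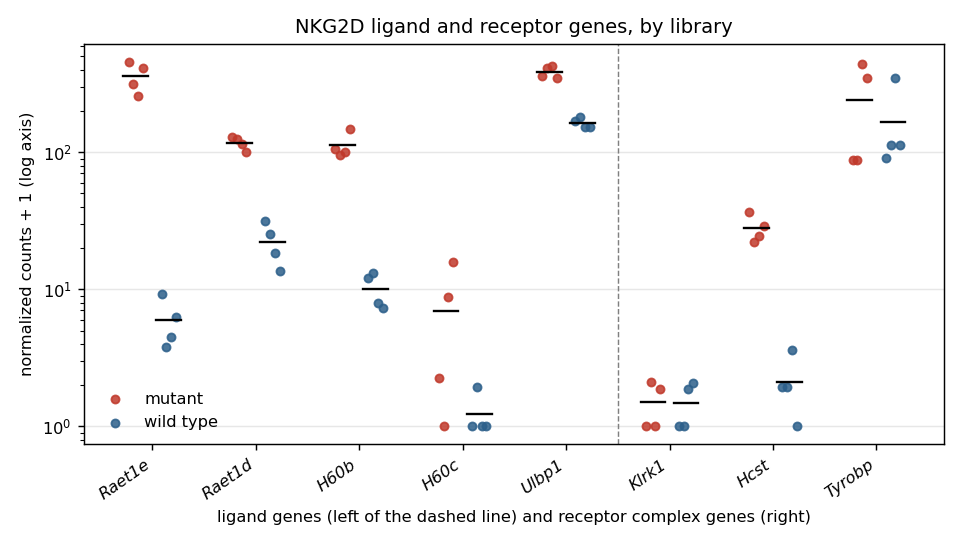
Normalized counts plus 1 (log axis) of NKG2D ligand genes, left of the dashed line, and NKG2D receptor complex genes, right of it, in each mutant (red) and wild-type (blue) library, with group means as bars. *Raet1e*, *Raet1d*, *H60b* and *Ulbp1* are separated between groups, whereas *Klrk1* holds at most 1 read per library.

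*Prss12* (chr3:123446913-123506597, plus strand) encodes neurotrypsin. Mutants 1 to 4 measured 1386, 998, 798 and 1098 normalized counts, and wild types 1 to 4 measured 10.1, 16.9, 17.3 and 8.44. It was among the less variable of the 10, with a coefficient of variation of 22.9% among mutants. The means of 1070 ± 245 and 13.2 ± 4.57 gave a log2 fold change of 6.31 (SE 0.25). Its substrate gene *Agrn* was lower (38576 ± 4059 against 64370 ± 5855, log2 fold change -0.74) but short of the log2 limit of 1, so it was not called. The same held for *Lrp4*, the agrin receptor (-0.68). Their Benjamini-Hochberg adjusted p were 0.00025 and 0.00054 in the edgeR quasi-likelihood test. *Dok7*, an adaptor further down, was not called either (-0.60, adjusted p = 0.073 in the same test). An antisense gene, *Gm35065*, shares 157 exonic bases with *Prss12* and measured 10.4 ± 5.02 in mutants and 0 in every wild-type library, and the use of strand in counting was not stated. Of 38 other *Prss* genes 5 were tested and 2 were higher, where 5.9% of all genes tested were. *Prss22*, a tryptase-like protease gene, measured 68.4, 37.6, 57.6 and 133 normalized counts in mutants 1 to 4 and 0.921, 0, 0 and 3.16 in wild types 1 to 4, a log2 fold change of 6.12 (SE 0.71), and *Prss23*, a gene with a high level in both groups, measured 2919 ± 627 against 591 ± 40.4.

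*Ptprn* (chr1:75247027-75264502, minus strand) encodes IA-2, a receptor-type tyrosine phosphatase without catalytic activity that sits in the membrane of dense core vesicles. It measured 3517, 1906, 1530 and 4358 normalized counts in mutants 1 to 4 and 42.4, 37.6, 91.6 and 61.2 in wild types 1 to 4. It had the highest wild-type level and the smallest change of the 10, at 2828 ± 1335 against 58.2 ± 24.5 and a log2 fold change of 5.59 (SE 0.41). Its closest relative *Ptprn2*, which encodes the second such vesicle protein, was lower in mutants, at 5.06, 1.11, 4.43 and 3.48 against 27.6, 15.0, 44.1 and 17.9, a log2 fold change of -2.87 (SE 0.50). The groups of *Ptprn2* do not overlap either, in the opposite order.

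Of 18 other receptor-type phosphatase genes tested, 2 were higher and 4 lower, where 5.9% and 8.05% of all genes tested were. The higher ones were *Ptpre* (3211 ± 466 against 819 ± 304) and *Ptprv* (51.9 ± 1.95 against 15.7 ± 7.84), and the lower ones were *Ptprn2*, *Ptprr*, *Ptprz1* and *Ptprd*, with log2 fold changes of -2.87 to -1.19. Of 14 dense core vesicle genes tested, 2 were higher and 7 lower, with a median log2 fold change of -1.13. *Cpe*, a carboxypeptidase that trims prohormones, and *Vgf*, a granin-like secreted protein gene, were the higher ones, at log2 fold changes of 1.24 and 1.26. The lower ones of largest change were *Ptprn2*, *Scg5* and *Cadps*, at -2.87, -2.22 and -2.14. Neuronal markers were lower too: 6 of 9 tested were called lower and 0 higher, and the list summed to 728 to 1026 in mutants and 1407 to 3176 in wild type (two-sided exact permutation, p = 0.0286). Those of largest change were *Neurod1*, *Gad1* and *Map2*, at -3.71, -2.46 and -2.11. The part of neuronal RNA in the fall of *Ptprn2* and other vesicle genes was not tested. *Ptprn* was chosen for high counts in the mutant libraries, so its direction beside the neuronal sum tests nothing, and its cell source was not tested. Oligodendrocyte genes (6 of 7 lower, sums of 2079 to 3408 against 3694 to 9242) and red blood cell genes (5 of 5 lower, 2573 to 8461 against 15739 to 27319) also stood lower in mutants without overlap.

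Among the 12 cell type lists, 5 reached the smallest possible permutation p, which becomes 0.0686 after Benjamini-Hochberg adjustment over the 12. The astrocyte list was the other one, at 18531 to 22204 in mutants against 10977 to 13052 in wild type. *Gja1*, a connexin gene that ECs also express, made up most of that sum (19462 ± 2148 against 11160 ± 933). Of the 6 astrocyte genes 0 were called, and their median log2 fold change was -0.49, opposite in sign to the change of the sum. The microglia, pericyte, fibroblast and endothelial sums gave p of 0.857, 0.657, 0.0857 and 0.743 by the same exact permutation test. Within these lists *Abcc9*, a potassium channel subunit gene, was higher, *Pdgfra*, a growth factor receptor gene, was lower, and of the endothelial genes *Cdh5*, whose promoter also drives the Cre, was higher (log2 fold change 1.11) and *Mfsd2a*, a lipid transporter of the blood-brain barrier, lower (-2.34).

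*Fam110c* (chr12:31073968-31079937, plus strand) had the highest mutant level of the 10, also per exonic length. It held 3394, 2954, 2802 and 5572 reads in mutants 1 to 4 and 18, 12, 32 and 37 reads in wild types 1 to 4. The mutants were close to one another, with a coefficient of variation of 21.5%. The fold of the means, 3880 ± 835 against 23.6 ± 12.3 normalized counts, was 164 (log2 7.37, SE 0.29). The other genes of its family did not share the direction: *Fam110a* measured 336 ± 77.4 against 584 ± 76.0 and *Fam110b* 35.3 ± 12.2 against 66.8 ± 24.0. Neither was called, since their log2 fold changes of -0.80 and -0.92 fell short of the limit of 1. Their Benjamini-Hochberg adjusted p were 0.0029 and 0.046 in the edgeR quasi-likelihood test.

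*Ttc9* (chr12:81631369-81664941, plus strand) measured 3290, 1968, 1620 and 2509 normalized counts in mutants 1 to 4 and 19.3, 18.8, 36.3 and 22.1 in wild types 1 to 4. The log2 fold change was 6.58 (SE 0.29). Of its paralogs, *Ttc9b* was called lower (11.7 ± 4.77 against 36.7 ± 14.9, log2 fold change -1.61) and *Ttc9c* was not called (769 ± 82.8 against 610 ± 18.9).

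The 2 non-coding genes differed in their spread. *Gm6634* (chr3:70772379-70807291, minus strand) held 313, 304, 259 and 371 reads in mutants 1 to 4 and 0, 1, 4 and 3 in wild types 1 to 4, so that its mutants were the most alike of the 10, with a coefficient of variation of 13.6%. Its fold was 178 (log2 7.39, SE 0.37). *D330037F02Rik* (chr9:115665914-115674353, plus strand) held 447, 302, 154 and 355 reads against 6, 8, 6 and 4, and mutant 1 exceeded mutant 3 by 3.32 times after scaling. Its fold was 61.4 (log2 5.90, SE 0.42).

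Over the 11 lists of families and partners together, 54 of 166 genes were tested, of which 10 were higher (18.5%, background 5.9%) and 13 lower (24.1%, background 8.05%), with genes on more than 1 list counted once. The NKG2D ligands were the family in which every gene tested was higher, though *Raet1d* and *H60b* share exonic bases with *Raet1e*. Known transcriptional outputs of MEK and ERK, by comparison, had 4 of 20 higher and 0 lower: *Etv4*, *Spred3*, *Myc* and *Dusp4*, at log2 fold changes of 4.28, 1.62, 1.20 and 1.10. The lowest of those 4 in wild type was *Etv4* at 74.8 ± 10.4. That is not far from *Ptprn*, the highest of the 10 genes in wild type, at 58.2 ± 24.5.

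The 10 genes followed a shared order among the mutant libraries. Mutant 3 was the lowest for 10 of 10 and mutant 1 the highest for 8 of 10, the exceptions being *Fam110c* and *Ptprn*, for which mutant 4 was highest. Mutants 1 and 4 both exceeded mutants 2 and 3 for 8 genes, all but *Gm6634* and *D330037F02Rik*. Among the 986 other genes called higher, mutant 3 was lowest for 46.6% and mutant 1 highest for 40.0%. Mutants 1 and 4 both exceeded mutants 2 and 3 for 45.5% of those 986. Over all genes tested, mutant 3 was lowest for 24.2% and mutant 1 highest for 26.2%. *Map2k1* was highest in mutant 1 as well, at 128% of its mutant mean, while mutants 2 and 3 were level at 86.8% and 86.9%. With another scaling of library size the order of each of the 10 was the same, whereas mutants 2 and 3 exchanged places for *Map2k1*. Relative to *Map2k1*, the level of *Klrb1c* per 100 normalized counts of *Map2k1* still ran from 0.36 in mutant 3 to 1.11 in mutant 1, and that of *Gm6634* only from 2.12 in mutant 1 to 2.65 in mutant 2. The median coefficient of variation among mutants was 39.1% for the 10 genes, 22.3% for the other genes called higher and 14.6% for all genes tested. With 4 mutant libraries no correlation was computed, and the share of recombined cells in each library was not analysed here.

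**Figure D4:**
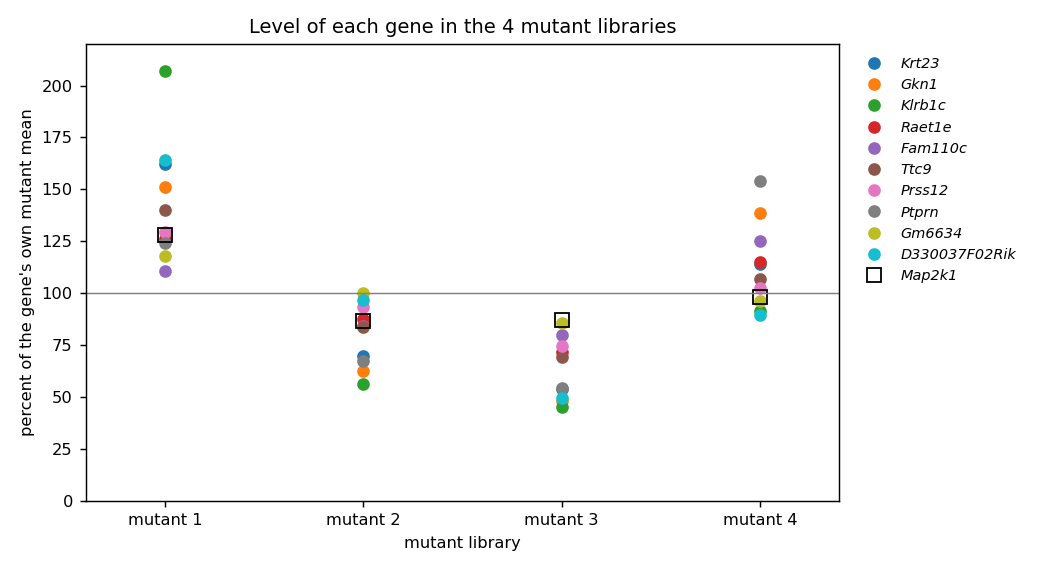
Normalized counts of each of the 10 genes (colours) and of *Map2k1* (open squares) in each mutant library, as percent of the gene's mean over the 4 mutants. All 10 genes are at their lowest in mutant 3, between 45.3% and 85.5%, and *Klrb1c* reaches 207% in mutant 1.

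The 10 genes lie on chromosomes 1, 3, 6, 9, 10, 11 and 12. Within 200 kb of them lie 152 other genes, of which 43 were tested, 10 were higher (23.3%, background 5.9%) and 1 lower (2.33%, background 8.05%). Genes that overlap one of the 10 are included. Of the higher ones, *Raet1d* and *H60b* share exonic bases with *Raet1e*, so the share called higher is not wholly separate from the selection. The median log2 fold change of the 43 was 0.01. The higher ones lay beside 5 of the 10. At *D330037F02Rik*, the 1 neighbour, *Gm48007*, lies 6.39 kb downstream on the same strand and measured 143 ± 67.5 normalized counts in mutants and 3.79 ± 1.22 in wild type (log2 fold change 5.20, SE 0.43), with mutant 1 highest and mutant 3 lowest as for *D330037F02Rik*. At *Raet1e* they were *Raet1d*, *H60b* and *Gm10825*, the last with a log2 fold change of 2.19. At *Ttc9* they were *Map3k9*, a kinase gene on its downstream side with a log2 fold change of 2.01, *Gm20498* (1.25) and *Gm28370* (1.17). At *Gkn1* they were *Antxr1*, a receptor gene for anthrax toxin and collagen 9.83 kb away (4939 ± 1295 against 1587 ± 67.7, log2 fold change 1.64), and *Arhgap25* (1.37), beside *Gkn3*, the 1 lower gene, 32.3 kb away. *Lamb1*, a laminin gene 185 kb from *Fam110c*, had a log2 fold change of 1.28.

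None of the neighbours tested was called at *Ptprn* (16 genes), *Prss12* (4), *Klrb1c* (3) or *Krt23* (1), and *Gm6634* had none tested. *Krt23* lies in the type I keratin cluster, with 35 genes within 200 kb of which 34 were too low to test. Within 1 Mb the share called higher was 8.14% of 221. The antisense gene *Gm28294*, which shares 189 exonic bases with *Ptprn*, measured 3.28 ± 2.25 against 0.499 ± 0.578, and *Gm44511*, which shares 413 with *Klrb1c*, held 0 reads.

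**Figure D5:**
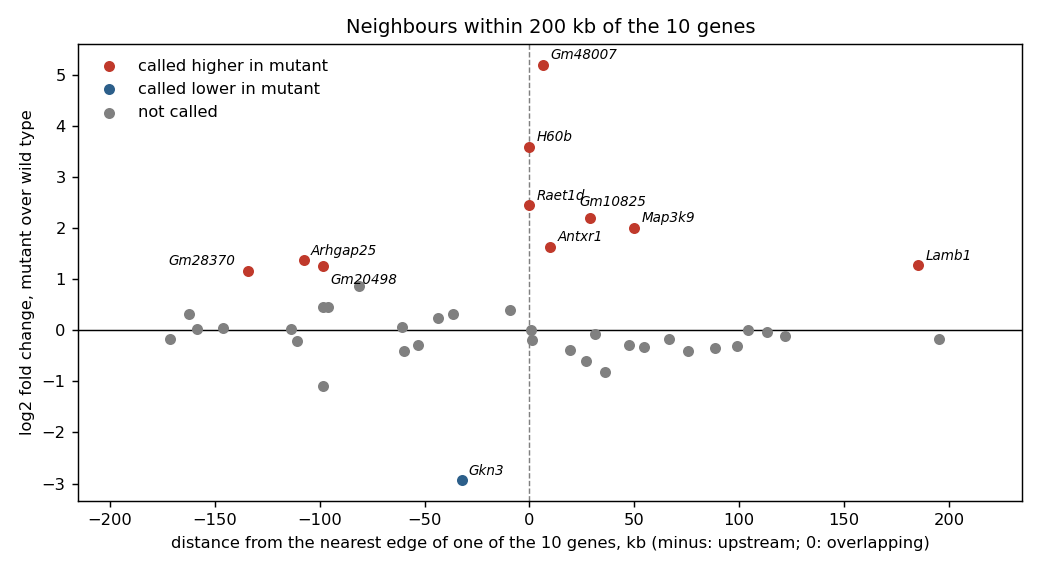
Log2 fold change (mutant over wild type) of the 43 tested genes within 200 kb of the 10 genes, against distance in kb from the nearest edge of the gene, negative on its upstream side. Red points were called higher (10), the blue point lower (*Gkn3*) and grey points were not called. The points include genes that overlap one of the 10, such as *Raet1d* and *H60b*.

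*Gkn1* and *Klrb1c* share chromosome 6 with the *Rosa* locus that carries the mutant allele. They lie 25.7 Mb and 15.7 Mb from *Gt(ROSA)26Sor*, whose own RNA was 178 ± 23.3 in mutants and 337 ± 71.2 in wild type. Its log2 fold change of -0.92 fell short of the limit of 1, so it was not called (Benjamini-Hochberg adjusted p = 0.0015 in the edgeR quasi-likelihood test). On chromosome 6, 7.88% of 901 genes tested were higher and 9.77% lower, beside 5.79% and 7.96% on the other chromosomes. Within 25 Mb of the locus the shares were 6.41% and 8.08% of 359 genes, and within 10 Mb they were 4.90% and 11.9% of 143 genes.

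The 10 genes are not the full set of such genes. With the limits that they span (a wild-type mean of at most 1.96 and a mutant mean of at least 3.38 CPM), 142 genes of the table qualified, and 141 qualified with the groups exchanged. CPM divides reads by the scaled size of the library and leaves exonic length out. With the added condition of a fold of at least 48.6, the lowest among the 10 and chosen after their values were seen, 18 genes qualified and 0 with the groups exchanged. The 8 that are not among the 10 were *Gm8748*, *D5Ertd615e*, *Lad1*, *Akr1b8*, *Grin2a*, *Hmga2*, *Cyp1a1* and *4930502E18Rik*. The nearest inside the condition were *4930502E18Rik* (49.0) and *Cyp1a1* (51.3), and the nearest outside were *Gm29682* (41.7), *Slc6a2* (39.2) and *Gm48007* (37.8).

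Likeness was measured as the root-mean-square difference in log2 CPM over the 8 libraries from the median profile of the 10 genes. The 5 most alike genes outside the 10 were *4930502E18Rik* (0.62), *Grin2a* (0.73), *Hmga2* (0.85), *9130008F23Rik* (0.89) and *Gm29682* (0.91). Among the 10 themselves it ran from 0.28 for *Raet1e* to 2.92 for *Ptprn*. *4930502E18Rik* measured 306, 207, 119 and 296 normalized counts in mutants 1 to 4 and 3.46 to 6.45 in wild type, with the same order of mutants as *Krt23*. *Grin2a*, which encodes an NMDA receptor subunit, measured 620, 161, 123 and 345 against 0.865 to 11.1. *Hmga2*, which encodes a chromatin protein of embryonic tissue, measured 1086 in mutant 4 and 229 to 311 in the other mutants, so its order was another.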

How the data were processed

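RNA of CD31-isolated brain ECs from 4 mutant and 4 wild-type P9 pups was sequenced after poly(A) selection, 1 library per pup. The authors trimmed reads with Trimmomatic 0.36, aligned them with STAR 2.5.2b to GRCm38 and deposited raw read counts per gene for each library. The counting program, its use of strand and its handling of reads with several matches are not given in the sources used here, which matters for genes with close copies. A table of the authors' normalized counts was not used.

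Counts were scaled by TMM and filtered with filterByExpr (minimum count 10), which left 16887 genes. Groups were compared in R 4.3.3 with edgeR 4.0.16 (glmQLFit and glmQLFTest), and a gene was called when its p, adjusted by Benjamini-Hochberg, lay below 0.05 and it differed by more than 1 on the log2 scale. SE values were derived from the fitted change and its F statistic. RPKM used the exonic lengths of the deposited count files, and symbols matched 48970 of 49315 identifiers. Gene positions and exons are those of the deposited count files, on GRCm38, and neighbours and exon overlaps used them. Gene types came from GENCODE vM21. Sequence identity between its transcripts was taken from blastn matches of at least 90% over at least 100 bases. Promoter windows came from RefSeq. Sums over gene lists were compared by exact permutation over the 70 splits of 8 libraries. Alternatives were DESeq2 1.42.0, other size factors, no filter, the replicate number or the prefix of the sample description as a block, other windows, and each library left out. The fit was tested on simulated counts.

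The 10 genes, the gene lists and the rule for naming genes were chosen with earlier results of these data known. Named were the 10 genes, *Map2k1* and *Gt(ROSA)26Sor*, in each list all called genes or, beyond 5, the 3 largest changes in each direction, called neighbours, genes overlapping one of the 10, the 5 genes closest in profile, and genes next to the limits. *Hcst*, *Klrk1* and other single genes with few reads were named as members of lists after their values were seen. The precision of low counts is set by the depth of 24833373 to 34196955 reads per library.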

Additional observations from a re-analysis of the deposited data

Results flagged for a closer look

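In 6 of 160 groups of 4 libraries examined (3.75%), 1 library stood far from the other 3, and chance gives about 1 in 20. None was a group of the 10 selected genes. *Alas2*, a heme synthesis gene, was at 102 normalized counts in mutant 4 and 325 to 365 in the other mutants. *Olig1* was at 64.1 in mutant 2 against 31.7 to 34.4, *Snap25* at 47.9 in mutant 4 against 7.60 to 14.4, and *Stmn2* at 124 in mutant 1 against 363 to 411. In wild type 3, *Pcsk2* was at 49.3 against 19.3 to 20.7 and *Ptprr* at 178 against 264 to 279.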

How the results depend on the processing

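The median log2 fold change of the 10 genes ran from 6.77 to 7.14 with single libraries left out. No log2 fold change of the 10 genes or of the other named genes changed direction. The log2 fold change of *Krt23* was 8.86 without wild type 2, and without wild type 2 for *Gkn1* or wild type 3 for *Klrb1c* the wild-type group was at 0 reads, so no fold is given. Without the filter on low counts 16 family genes and 19 neighbours were called higher, against 10 and 10, and the 10 were among them in both cases. With a window of 1 Mb, 18 neighbours were higher and 12 lower. With single libraries left out, neighbours called lower numbered 1 to 2, natural killer cell genes higher 1 to 2 and lower 0 to 1, and cell type lists past the permutation test 3 to 5. Genes within the limits of the 10 numbered 117 to 363, and 75 to 498 with the groups exchanged. The highest values came without mutant 1, which moves the lower limit set by *Klrb1c*, and 75 came without wild type 3. With medians in place of means they numbered 219 and 281. Which of the counts was the larger depended on the setting. Of 57 named genes, 49 kept their call in all 13 settings. The others, *Eomes*, *Gm28370*, *Pcsk2*, *Pdgfra*, *Rab3a*, *Snap25*, *Stmn2* and *Txk*, lost it in 1 to 6 settings.

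Deviations of libraries with the same replicate number correlated at 0.20, 0.21, 0.29 and 0.02, 3 of them over 0.1, and not every library correlated best with its own number, so these values do not settle whether the numbers mark pairs. Controls were drawn from the mutants' litters, and same-numbered libraries share a prefix in their descriptions, whose meaning is not stated. With the replicate number as a block, 1032 genes were higher and 1399 lower, against 996 and 1360, and with the prefix as a block 1050 and 1406. The replicate block ended the call of *Snap25* (Benjamini-Hochberg adjusted p = 0.0644 in the edgeR quasi-likelihood test). Depth limits *Gkn1* and *Klrb1c* most, whose wild-type level rests on 1 read each.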
